A study of Mus musculus with 16 samples.

Results

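The genes followed here are 10 components of the creatine and calcium cycles that can burn ATP in thermogenic fat without UCP1: *Gatm*, *Gamt*, *Slc6a8*, *Ckb*, *Ckmt1*, *Ckmt2*, *Alpl*, *Atp2a2*, *Ryr2* and *Itpr1*. They were taken by name, not by their values, but with earlier results of these data known. All 10 were found among the 49066 gene symbols of the data. RNA was sequenced from brown adipose tissue (BAT) of C57BL6/J mice that were 18 weeks old and had been fed a high-fat diet (HFD) for 12 weeks. All mice carried homozygous floxed *Gdf15* alleles (Gdf15 fl/fl). The KO mice (GDF15 BKO) also carried Tg(Ucp1-cre)1Evdr, a Cre recombinase driven by the *Ucp1* promoter, so that *Gdf15* is deleted in *Ucp1*-expressing adipocytes while the other cells of the tissue keep it. The WT mice had the floxed alleles without Cre. Each combination of sex and genotype had 4 libraries, and the question is how the members differ between the genotypes and between the sexes.

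In the creatine cycle, phosphocreatine is broken down and rebuilt without useful work, so that ATP is spent and heat is released. GATM and GAMT make creatine, SLC6A8 brings it into the cell, creatine kinases charge it with phosphate from ATP, and the phosphatase ALPL (TNAP) can remove that phosphate again. In the calcium cycle, the pump SERCA2, encoded by *Atp2a2*, spends ATP to move calcium into the endoplasmic reticulum, and channels such as RYR2 and the inositol trisphosphate receptor ITPR1 let it leak back to the cytosol. Both cycles are known from brown and beige adipocytes as sources of heat beside UCP1.

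The deposited values are TPM, a level per unit of transcript length that adds up to 1000000 in every library. Sequencing depth cannot be read from them, so no counting error can be given and precision is described by the spread between libraries. All 16 brown adipocyte markers had a mean of at least 1 TPM, and *Ucp1* itself ranged from 2350 to 4420 TPM. *Gdf15* was lower in every male KO library (0.0801 to 0.272 TPM) than in any male WT library (0.368 to 3.81 TPM), whereas in females it was low in both genotypes (0.0622 to 0.311 TPM in WT, 0 to 0.0794 TPM in KO). Mitochondrially encoded transcripts held 34.5 to 59.8% of all TPM. In female WT replicate 4, a single transcript that could not be matched to a gene took 16.51%. The names of the libraries begin with 5, 8b, 9 or 10, and the meaning of this prefix is not stated. The WT males have the prefixes 5, 5, 9 and 9, the KO males 10, 9, 9 and 9, the WT females 10, 8b, 8b and 8b, and the KO females 10, 5, 8b and 9. RNA of skeletal muscle varied widely, and the summed TPM of 16 muscle markers ran from 75.8 to 4900 across libraries.

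Per unit of transcript length, the pump gene *Atp2a2* was the most abundant member (mean of 56.9 TPM over 16 libraries) and exceeded *Ckb*, the next one (34.5 TPM), in 14 of 16 libraries. *Itpr1* followed with 18.4 TPM and *Slc6a8* with 12.8 TPM. *Ckb* was above *Itpr1*, and *Itpr1* above *Slc6a8*, in 13 of 16 libraries each. *Slc6a8*, *Ckmt2* (10.0 TPM) and *Alpl* (7.2 TPM) did not keep one order, since *Slc6a8* was above *Ckmt2* in 10 of 16 libraries and *Ckmt2* above *Alpl* in 6. The low end was held by *Gamt* (3.99 TPM), *Ryr2* (1.86 TPM), *Gatm* (1.11 TPM) and *Ckmt1* (0.0786 TPM). *Gamt* was above *Ryr2* in 16 of 16 libraries, but *Ryr2* was above *Gatm* in only 11.

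**Figure D1:**
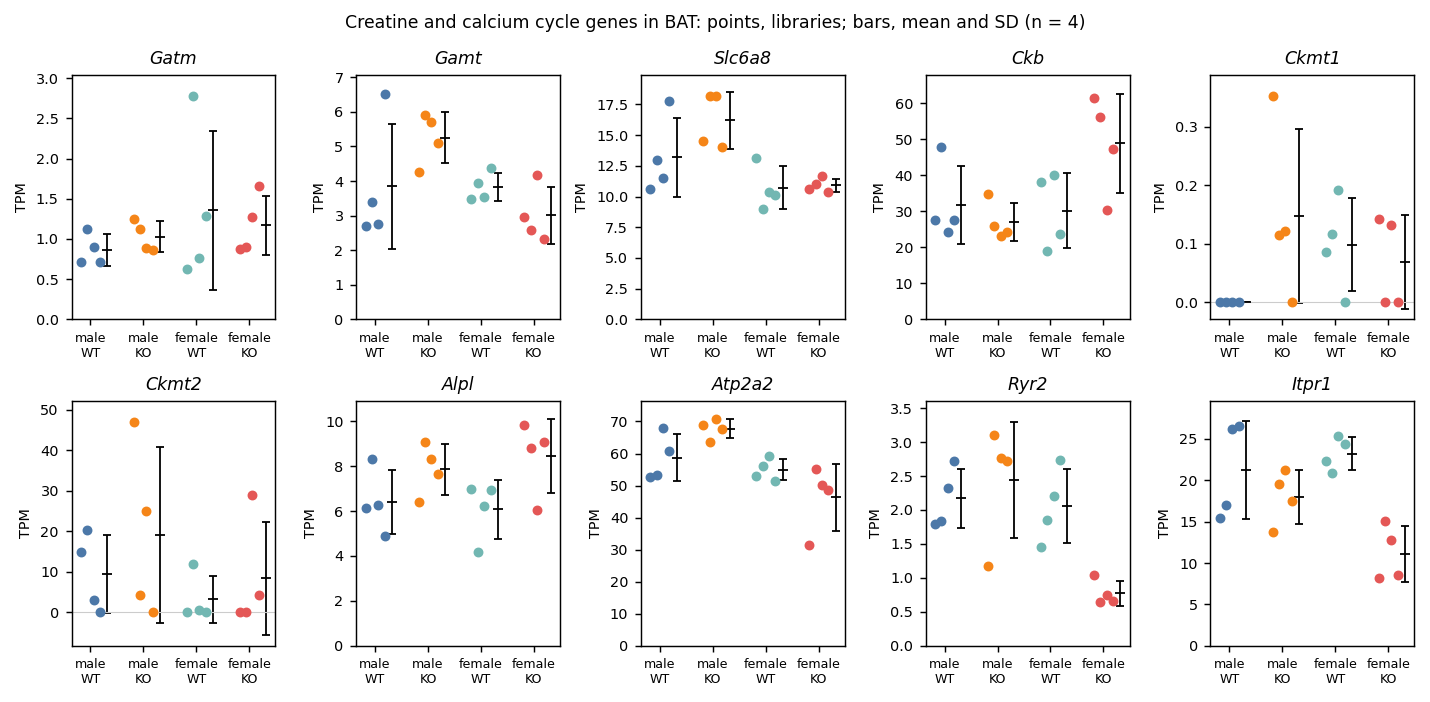
TPM of the 10 members in BAT. Each point is 1 library, and the bars beside the points are the mean and SD of the 4 libraries of a group, with TPM on the y axis of each panel. All 4 female KO points lie below all 4 female WT points for *Ryr2* and *Itpr1*, the *Ckmt2* points run from 0 to 47.1 TPM, and *Ckmt1* stays at or under 0.352 TPM.

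In females, both calcium release channels were lower in KO than in WT libraries. *Itpr1* (ENSMUSG00000030102, chromosome 6) had 22.3, 20.9, 25.3 and 24.4 TPM in the female WT libraries 1 to 4 and 8.2, 15.1, 12.8 and 8.5 TPM in the female KO libraries. Every female KO library was thus below every female WT library, with means of 23.2 ± 2.0 TPM in WT and 11.1 ± 3.34 TPM in KO (mean ± SD, n = 4 each). The log2 fold change was -1.07 (SE 0.2). An exact two-sided permutation test gave p = 0.0286, the lowest possible with 4 against 4, which any groups without overlap reach. The change did not pass the adjustment over the 12141 genes tested (limma adjusted p = 0.231). In males, *Itpr1* had 15.4, 17, 26.2 and 26.6 TPM in WT and 13.7, 19.6, 21.3 and 17.5 TPM in KO. These groups overlapped, and the log2 fold change was -0.21 (SE 0.21, limma adjusted p = 0.585). In bulk tissue, fewer cells of a type and less RNA per cell cannot be told apart.

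Taken over both sexes, the mean KO effect on *Itpr1* was -0.64 on the log2 scale (SE 0.15), which passed the threshold (limma, adjusted p = 0.0389). *Itpr1* was the only member of 9 tested to do so, against a background of 2.95% of all genes tested (360 of 12210), and 3 of the 9 had an unadjusted p under 0.05, as did 2930 of all 12210 genes (24%). Among all genes, 317 of these calls were higher in KO and 43 lower, or 260 and 211 after median-of-ratios scaling, which centres the genes within each library. Under that scaling *Itpr1* differed by -1.16 in females (limma adjusted p = 0.159) and -0.38 in males (limma adjusted p = 0.386). The mean KO effect on *Itpr1* was then -0.77 (limma adjusted p = 0.016). The call was lost when the prefix was a covariate (-0.65, limma adjusted p = 0.142), and it held without male WT 1, male WT 2, female WT 1, female KO 2 or female KO 3 but not without any of the other 11 libraries (limma adjusted p of up to 0.0862). Within a prefix, the female difference was -1.39 for prefix 10 (1 WT and 1 KO library) and -0.85 for prefix 8b (3 WT and 1 KO), and the male difference was -0.44 for prefix 9 (2 WT and 3 KO). The remaining prefixes hold 1 genotype only in that sex.

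*Ryr2* (ENSMUSG00000021313, chromosome 13), best known as the calcium release channel of heart muscle, was the lowest of the calcium genes. Its female WT libraries had 1.45, 1.85, 2.21 and 2.73 TPM and its female KO libraries 1.04, 0.641, 0.748 and 0.652 TPM. Again no female KO library reached the lowest female WT library, with 2.06 ± 0.543 TPM in WT and 0.771 ± 0.188 TPM in KO (mean ± SD, n = 4 each). The log2 fold change was -1.0 (SE 0.22, exact two-sided permutation p = 0.0286), and the limma adjusted p was 0.231. On this scale, log2(TPM + 0.5), the change of so low a gene is understated, and with a pseudocount of 0.1 it was -1.3. In males the WT libraries had 1.8, 1.84, 2.32 and 2.72 TPM and the KO libraries 1.18, 3.11, 2.76 and 2.72 TPM. The male groups overlapped and the log2 fold change was 0.09 (SE 0.25, limma adjusted p = 0.847), turning to -0.04 under median-of-ratios scaling. Within prefixes, the female difference was -0.34 for prefix 10 and -1.14 for prefix 8b.

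A separation of every female KO library below every female WT library was found for 3.19% of the 12141 genes tested in females, and for *Itpr1* and *Ryr2* among the 9 members tested there. No member had every KO library above every WT library in females, which 4.9% of genes did. In males, no member separated the genotypes in either direction, against 0.673% of the 12177 genes tested with all KO libraries lower and 9.54% with all KO libraries higher.

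Long transcripts had a lower median in the female KO libraries. Among genes whose most abundant transcript is over 8 kb, the median log2 fold change was -0.216 in females (312 genes, 24% higher in KO) and 0.021 in males (308 genes), whereas for transcripts under 1 kb it was 0.207 in females and 0.089 in males. The leading *Itpr1* transcript has 9761 bases, and the full-length *Ryr2* transcripts have 16814 and 16813. When a smooth trend on length and GC content was removed from each library, an alternative chosen after seeing the data, the female difference was -0.86 for *Itpr1* and -1.06 for *Ryr2*, and the mean KO effect on *Itpr1* was -0.54 (limma adjusted p = 0.0582). For *Ryr2* this removal used the length of its most abundant transcript, a fragment of 3086 bases. Markers of other cell types also differed between these female libraries. The summed TPM of 10 endothelial markers was 245 to 378 in WT and 411 to 818 in KO. That of 11 smooth muscle and pericyte markers was 194 to 214 in WT and 232 to 352 in KO. The sums of 12 Schwann cell and neuron markers overlapped, at 132 to 210 in WT and 96.8 to 152 in KO. Of the 5 tested in females, 2 had a higher and 3 a lower mean in KO (median log2 fold change -0.03). In males, 12 macrophage markers summed to 49.2 to 97.4 TPM in WT and 124 to 180 TPM in KO, and 10 fibroblast markers to 118 to 207 and 253 to 266 TPM. No marker was at 0 in all 16 libraries. The part of these markers in the lower *Itpr1* and *Ryr2* was not tested. With the skeletal muscle score as a covariate, also added after seeing the data, the female differences were -1.06 for *Itpr1* and -0.98 for *Ryr2*.

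**Figure D2:**
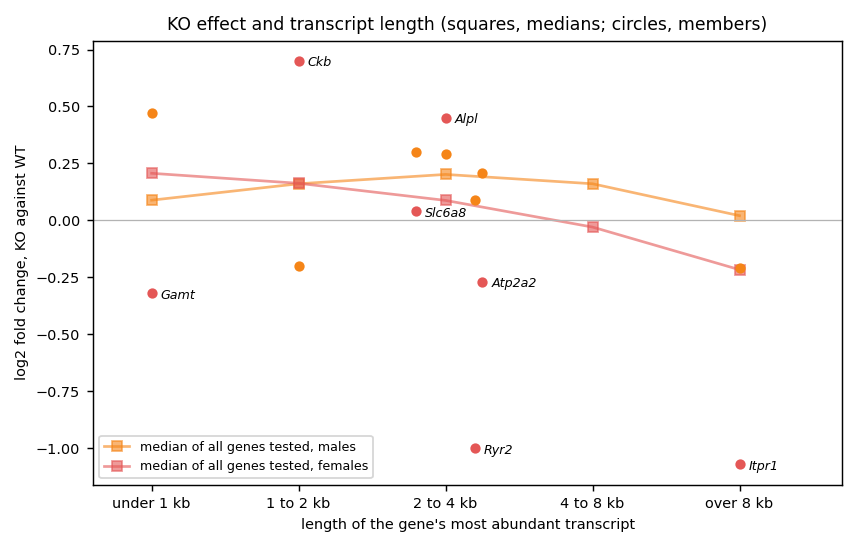
Log2 fold change of KO against WT (y axis) by the length of each gene's most abundant transcript (x axis, 5 bins). Squares are medians of all genes tested and circles are 7 members, in orange for males and red for females, and the position of a circle within its bin carries no value. The female medians fall from 0.207 to -0.216 with length, and *Itpr1* (-1.07) and *Ryr2* (-1.0) lie below the median of their bin.

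*Itpr1* was made up of several transcripts. The full-length *Itpr1-205* took 62.3% of its TPM and had 12.9 to 15.4 TPM in female WT and 5.39 to 9.3 TPM in female KO libraries, so that its groups did not overlap either. The short *Itpr1-206*, annotated as incomplete, had 5.17 to 6.8 TPM in female WT and 0.833 to 2.68 TPM in female KO. For *Ryr2*, the incomplete *Ryr2-207* took 45% of the TPM, with means of 0.858 ± 0.289 TPM in female WT and 0.243 ± 0.0542 TPM in female KO (mean ± SD, n = 4 each). The full-length *Ryr2-201* had 0.39 ± 0.103 TPM (SD, n = 4) and 0.188 ± 0.0551 TPM (SD, n = 4). These transcripts had the lower mean in female KO, whereas *Itpr1-210*, a short transcript with a retained intron and 8.86% of the gene's TPM, had 0.422 to 1.02 TPM in female WT and 0.942 to 2.52 TPM in female KO.

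The pump gene *Atp2a2* (ENSMUSG00000029467, chromosome 5) did not pass in either sex. The male WT libraries had 52.6, 53.3, 68.0 and 60.8 TPM and the male KO libraries 69.0, 63.7, 70.8 and 67.7 TPM. The groups overlapped, as 2 of 4 KO libraries were above the highest WT library, and the log2 fold change was 0.21 (SE 0.11, limma adjusted p = 0.304), near the median of all genes in males (0.16). It was 0.05 under median-of-ratios scaling and 0.03 with length and GC removed. In females it was -0.27 (SE 0.18, limma adjusted p = 0.44), from 53.0, 56.0, 59.2 and 51.5 TPM in WT and 31.3, 55.1, 50.3 and 48.5 TPM in KO. Here 3 of 4 KO libraries were below the lowest WT library. The difference between the sexes was -0.49 (SE 0.21, limma adjusted p = 0.315).

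Splicing at the 3′ end of *Atp2a2* gives SERCA2a, the form of heart and slow muscle, and SERCA2b, the longer and more widely expressed form that is linked to calcium cycling in beige fat. The coding sequences of *Atp2a2-202* (998 codons) and *Atp2a2-201* (1044 codons) in GENCODE release M21 share their first 2983 bases. Their ends are shown because they are what tells the forms apart, with the last 30 shared bases in lower case and the bases of each form, up to its stop codon, in capitals.
Atp2a2-202 (SERCA2a): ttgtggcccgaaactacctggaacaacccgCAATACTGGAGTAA
Atp2a2-201 (SERCA2b): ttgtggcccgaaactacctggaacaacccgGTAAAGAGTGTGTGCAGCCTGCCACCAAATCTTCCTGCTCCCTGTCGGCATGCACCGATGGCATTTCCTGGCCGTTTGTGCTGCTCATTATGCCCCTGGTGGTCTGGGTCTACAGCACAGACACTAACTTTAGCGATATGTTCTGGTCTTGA

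Over the 16 libraries, *Atp2a2-202* had the largest share of the gene's mean TPM with 53.2%, and *Atp2a2-201* took 31.2%. The share of *Atp2a2-202* was 54.3 to 57.7% in male WT and 53.6 to 60.9% in male KO. In females it was 40.7 to 54.9% in WT and 35.1 to 58.8% in KO. That of *Atp2a2-201* was 30.7 to 46.9% in female WT, so *Atp2a2-202* did not lead in every library. A further transcript with the same 1044 codons, *Atp2a2-203*, is annotated as a target of nonsense-mediated decay and took 14.7%. In females, *Atp2a2-202* had 27.9 ± 4.44 TPM in WT and 21.9 ± 7.97 TPM in KO (mean ± SD, n = 4 each), and *Atp2a2-201* had 20.1 ± 3.58 TPM (SD, n = 4) and 12.4 ± 5.34 TPM (SD, n = 4), with overlapping groups for both. *Atp2a2-203* went the other way, from 5.14 to 7.61 TPM in female WT to 9.03 to 13.6 TPM in female KO libraries, without overlap. Its share of the gene was 9.97 to 13.6% in female WT, 18 to 43.6% in female KO, 9.63 to 17.5% in male WT and 8.84 to 13.2% in male KO, so that male WT libraries came close to the lowest female KO library. These shares rest on how reads were divided among transcripts that overlap for most of their length, and they were not tested.

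**Figure D3:**
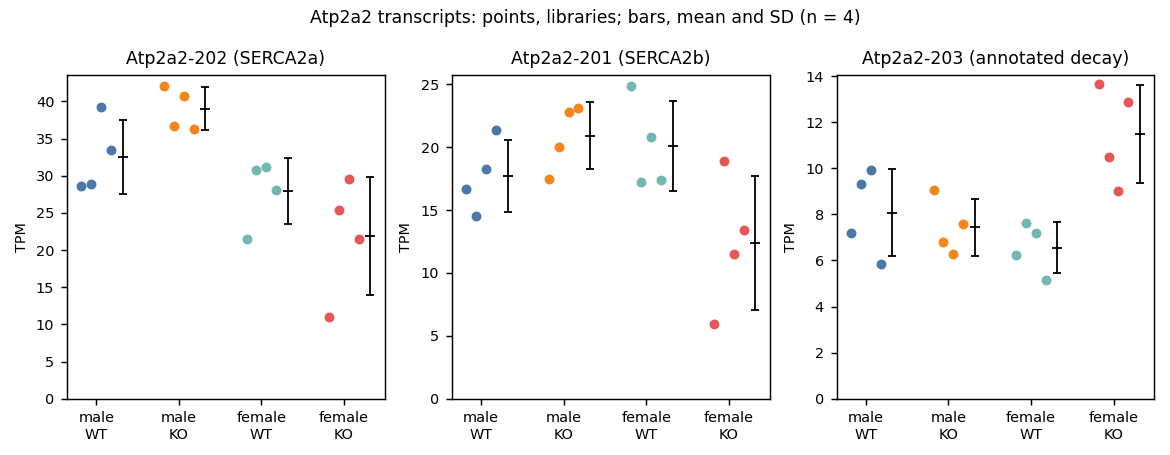
TPM of the 3 main *Atp2a2* transcripts (y axis) in the 4 groups (x axis). Points are libraries and bars are mean and SD of 4 libraries. The female KO libraries have the highest mean for *Atp2a2-203* (11.5 TPM) and the lowest for *Atp2a2-202* (21.9 TPM) and *Atp2a2-201* (12.4 TPM).

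On the creatine side, the brain-type creatine kinase gene *Ckb* (ENSMUSG00000001270, chromosome 12) was highest in the female KO libraries. They had 61.4, 56.3, 30.3 and 47.4 TPM, against 38.1, 19.1, 40 and 23.7 TPM in female WT, and 3 of 4 were above the highest WT library. The means were 48.9 ± 13.7 TPM in KO and 30.2 ± 10.4 TPM in WT (mean ± SD, n = 4 each). The log2 fold change was 0.7 (SE 0.29, limma adjusted p = 0.274, exact two-sided permutation p = 0.114). In males, WT libraries had 27.5, 47.8, 24.2 and 27.7 TPM and KO libraries 34.8, 26.0, 23.1 and 24.3 TPM, a log2 fold change of -0.2 (SE 0.22, limma adjusted p = 0.629). A single male WT library, replicate 2, set the sign there, and without it the value was 0.01. The interaction of sex and genotype was 0.9 (SE 0.39, limma adjusted p = 0.32). Within prefixes the female difference was 0.68 for prefix 10 and 0.2 for prefix 8b. Of the 16 brown adipocyte markers, 13 had a higher mean in female KO (median 0.28, all genes 0.1 with 62.7% higher). In male KO 6 did (median -0.04, all genes 0.16 with 79.9% higher), and none passed in either sex. The part of brown adipocyte RNA in the *Ckb* values was not tested.

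*Alpl* (ENSMUSG00000028766, chromosome 4), the phosphatase of the cycle, had the higher mean in KO libraries of both sexes. In females it had 6.98, 4.18, 6.22 and 6.95 TPM in WT and 9.82, 8.83, 6.05 and 9.09 TPM in KO. Here 3 of 4 KO libraries were above all WT libraries, with a log2 fold change of 0.45 (SE 0.2, limma adjusted p = 0.29, exact two-sided permutation p = 0.114). In males it had 6.13, 8.31, 6.29 and 4.91 TPM in WT and 6.39, 9.08, 8.31 and 7.66 TPM in KO, with a log2 fold change of 0.29 (SE 0.16, limma adjusted p = 0.351), which was 0.13 under median-of-ratios scaling and 0.03 with length and GC removed. The mean KO effect of 0.37 (SE 0.13, limma adjusted p = 0.116) did not pass, and it was 0.24 and 0.14 under these settings. The female value was 0.36 and 0.24. Together, *Ckb* and *Alpl* had the largest positive log2 fold changes in females among the members tested other than *Ckmt2*, which is treated below.

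In the female KO libraries *Ckb* had the higher mean and *Ryr2* the lower, and neither difference passed the adjustment. The 250 bases before their annotated starts are shown for comparison (RefSeq, GRCm38.p6, both on the minus strand, written 5′ to 3′ of the gene). Promoter windows were matched for 7 of the 10 members, all except *Slc6a8*, *Atp2a2* and *Itpr1*. Capitals mark matches on either strand to TGACG (a core of cAMP response elements), AAGGTCA (a nuclear receptor extended half-site), TATAAA (the TATA box) or GGGCGG (a GC box), none of which overlapped here.
Ckb, chr12:111672339-111672588: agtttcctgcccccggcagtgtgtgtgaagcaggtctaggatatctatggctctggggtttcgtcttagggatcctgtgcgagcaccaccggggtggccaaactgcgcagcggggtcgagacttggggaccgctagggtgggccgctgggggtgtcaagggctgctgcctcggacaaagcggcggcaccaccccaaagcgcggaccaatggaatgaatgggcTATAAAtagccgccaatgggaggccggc
Ryr2, chr13:12106946-12107195: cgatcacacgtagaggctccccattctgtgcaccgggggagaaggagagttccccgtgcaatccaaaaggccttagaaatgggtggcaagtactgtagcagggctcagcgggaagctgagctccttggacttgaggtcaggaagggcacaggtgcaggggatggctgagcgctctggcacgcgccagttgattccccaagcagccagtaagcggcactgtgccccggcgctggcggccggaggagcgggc

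The *Ckb* window holds 1 TATAAA, found in 12.4% of the 32851 windows, and none of the other motifs. The *Ryr2* window holds none of the 4, which occur in 17.8% (TGACG), 4.08% (AAGGTCA), 12.4% (TATAAA) and 32.7% (GGGCGG) of windows. Both are rich in GC, at 62.8% for *Ckb* and 63.2% for *Ryr2*, compared with a median of 52.4%. The *Ryr2* window lies 460337 bases from the start of its leading, incomplete transcript. These are matches of letters only.

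The creatine transporter gene *Slc6a8* (ENSMUSG00000019558, chromosome X) was lower in females than in males. Female WT libraries had 13.1, 9.02, 10.4 and 10.1 TPM and female KO libraries 10.6, 11, 11.7 and 10.4 TPM. Male WT libraries had 10.6, 13, 11.5 and 17.8 TPM and male KO libraries 14.5, 18.2, 18.2 and 14 TPM. Over both genotypes, 5 of 8 female libraries were below every male library. The log2 fold change of females against males was -0.41 (SE 0.11) and passed (limma, adjusted p = 0.0441). Within WT mice alone the difference was -0.28 (limma adjusted p = 1.0), and with the prefix as a covariate it was -0.32 (limma adjusted p = 0.47). The call was also lost without the trend (limma adjusted p = 0.0508) and with no TPM minimum (limma adjusted p = 0.0889). Within prefixes it was -0.28 (prefix 10), -0.09 (prefix 5) and -0.56 (prefix 9), and prefix 8b holds females only. The call held without male WT 1, male KO 1, female WT 1 or female KO 2, but not without any of the other 12 libraries. Between genotypes, *Slc6a8* had a log2 fold change of 0.3 in males (SE 0.17, limma adjusted p = 0.353) and 0.04 in females (SE 0.13, limma adjusted p = 0.866), and the female value was -0.04 under median-of-ratios scaling.

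*Slc6a8* and *Ryr2* were the 2 of 9 tested members that passed between the sexes, where the background was 4.47% (546 of 12210 genes, 71 higher and 475 lower in females, or 169 and 287 after median-of-ratios scaling). The log2 fold change of *Ryr2* was -0.62 in females against males (SE 0.16, limma adjusted p = 0.0463). In WT mice alone it was -0.07, so that the female WT libraries (1.45 to 2.73 TPM) and the male WT libraries (1.8 to 2.72 TPM) covered much the same range. The call was lost under median-of-ratios scaling (-0.55, limma adjusted p = 0.0734), with the prefix as a covariate (-0.53, limma adjusted p = 0.34), with a pseudocount of 1 (limma adjusted p = 0.0521), with no TPM minimum (limma adjusted p = 0.1), with length and GC removed (limma adjusted p = 0.0723) and without any one of 13 libraries, and held without male WT 1, male KO 1 or female WT 4. Within prefixes the difference was 0.05 (prefix 10), -1.03 (prefix 5) and -1.48 (prefix 9). *Atp2a2* was 63.2 TPM on average in males and 50.6 TPM in females, and its log2 fold change of -0.33 (SE 0.11) did not pass (limma adjusted p = 0.0837).

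**Figure D4:**
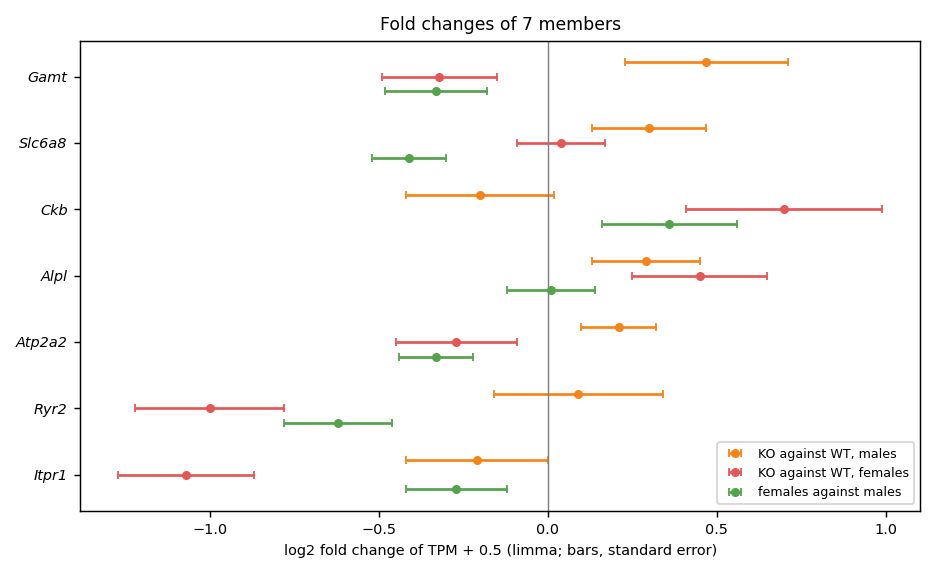
Log2 fold changes of 7 members (x axis, on log2(TPM + 0.5)) with their standard errors as bars, for KO against WT in males (orange), KO against WT in females (red) and females against males (green). *Itpr1* and *Ryr2* lie near -1 in females, and at -0.21 and 0.09 in males. *Ckb* is at 0.7 in females and -0.2 in males, and *Slc6a8* is at -0.41 between the sexes.

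The enzymes of creatine synthesis were scarce. *Gamt* (ENSMUSG00000020150, chromosome 10), which adds the methyl group that completes creatine, had 2.71, 3.4, 2.76 and 6.52 TPM in male WT and 4.27, 5.92, 5.7 and 5.11 TPM in male KO libraries. Its male log2 fold change was 0.47 (SE 0.24, limma adjusted p = 0.314), and male WT replicate 4 was above every KO library. In females, 3.48, 3.95, 3.53 and 4.37 TPM in WT stood against 2.97, 2.59, 4.17 and 2.33 TPM in KO, with 3 of 4 KO libraries below all WT libraries and a log2 fold change of -0.32 (SE 0.17, limma adjusted p = 0.349). The difference between these effects was -0.8 (SE 0.31, limma adjusted p = 0.275). *Gatm* (ENSMUSG00000027199, chromosome 2), the first and committed step, was near 1 TPM. It ranged from 0.709 to 1.12 TPM in male WT, 0.858 to 1.25 in male KO, 0.626 to 2.78 in female WT and 0.873 to 1.66 in female KO. The groups overlapped in both sexes, with log2 fold changes of 0.17 in males, where *Gatm* was under the TPM minimum (exact two-sided permutation test, p = 0.286), and -0.05 in females (SE 0.35, limma adjusted p = 0.951).

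The mitochondrial creatine kinases were not steady components of these libraries. *Ckmt1* (ENSMUSG00000000308, chromosome 2), the ubiquitous form, was listed at 0 in all 4 male WT libraries and in 8 of 16 libraries in all, and was at most 0.352 TPM elsewhere. It was under the TPM minimum in each comparison (exact two-sided permutation p = 0.143 in males and p = 0.743 in females). *Ckmt2* (ENSMUSG00000021622, chromosome 13), the form of striated muscle, had 14.9, 20.2, 2.88 and 0 TPM in male WT, 47.1, 4.09, 25 and 0 TPM in male KO, 0, 11.9, 0.55 and 0.0898 TPM in female WT and 0.0627, 0, 29.0 and 4.15 TPM in female KO. Each group thus held libraries near 0 beside libraries above 10 TPM, and the log2 fold changes of 0.59 in males (SE 1.58, limma adjusted p = 0.848) and 0.83 in females (SE 1.44, limma adjusted p = 0.762) were smaller than their standard errors.

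*Ckmt2* followed the skeletal muscle markers from library to library. Its log2 level and the mean log2 level of the 16 markers had a Pearson r of 0.991 and a Spearman rho of 0.948 over the 16 libraries (permutation p = 1e-05 for each, the smallest that 100000 resamples can give). Without the 2 libraries farthest from the median score r was 0.995, within the 6 libraries of prefix 9 it was 0.999, and between deviations from the group means it was 0.99. The libraries with *Ckmt2* at or under 0.0898 TPM had a summed muscle signal of 75.8 to 117 TPM, and the library with 47.1 TPM had 4900 TPM. *Ckm*, the cytosolic muscle creatine kinase, ranged from 0.0697 to 856 TPM. *Ckb* therefore made up between 3.71% (male KO 1) and 99.6% (female WT 1) of the TPM of the 4 creatine kinase genes. With the muscle score as a covariate, the female log2 fold change of *Ckmt2* was -0.02.

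**Figure D5:**
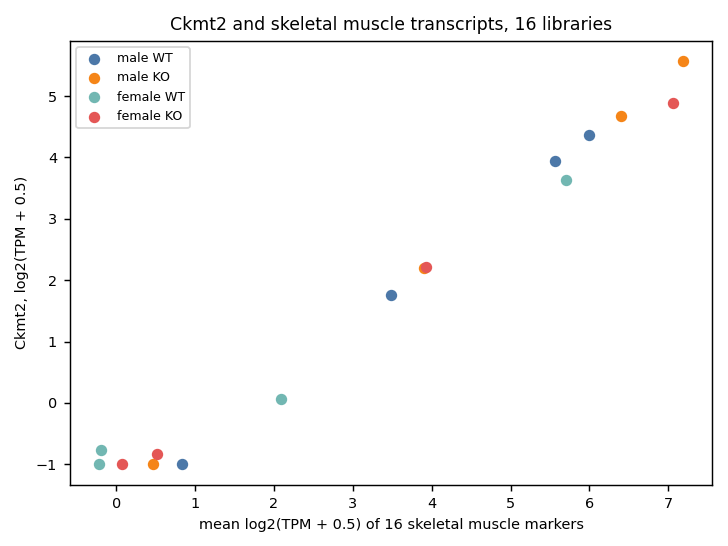
*Ckmt2* (y axis, log2(TPM + 0.5)) against the mean log2(TPM + 0.5) of 16 skeletal muscle markers (x axis) in 16 libraries, coloured by group. The points of all 4 groups fall along one line (Pearson r = 0.991), from libraries at 0 TPM to male KO 1 at 47.1 TPM.

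As a list, the members showed no common direction. In males, 6 of 8 tested members had a higher mean log2 level in KO (median log2 fold change 0.25) where 79.9% of all genes did (median 0.16), and after median-of-ratios scaling 5 of 8 did (median 0.09, all genes 0.01). None passed in males (limma, 0 with an unadjusted p under 0.05), against a background of 0.00821% (1 of 12177 genes, 2281 or 18.7% with an unadjusted p under 0.05). In females, 4 of 9 were higher (median -0.05, all genes 0.1, with 62.7% of genes higher), and 3 of 9 under that scaling. None passed (limma, 4 with an unadjusted p under 0.05: *Itpr1*, *Ryr2*, *Ckb* and *Alpl*), and the background was 0.0% (0 of 12141 genes, 2077 or 17.1% with an unadjusted p under 0.05). For the interaction of sex and genotype, none of 9 passed (limma, 5 with an unadjusted p under 0.05), with a background of 0.0% (0 of 12210 genes, 1737 or 14.2% with an unadjusted p under 0.05). The largest of these differences was that of *Ryr2*, -1.09 (SE 0.33, limma adjusted p = 0.218), followed by *Ckb* and by *Itpr1* with -0.85 (SE 0.3, limma adjusted p = 0.248).

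The neighbouring genes of both cycles were read from 7 lists. Over these lists together limma called 0 of 65 tested genes in males (16 with an unadjusted p under 0.05), 0 of 63 in females (8) and 0 of 64 for the interaction (13), where the unadjusted shares over all genes were 18.7%, 17.1% and 14.2%. It called 2 of 64 for the mean KO effect and 3 of 64 between the sexes, near the shares of all genes called (2.95% and 4.47%). With the prefix as a covariate, 12 of all genes tested passed in the mean effect and 93 between the sexes. For the genes of these lists, only the fit without covariates is given here. Of 20 further genes for release channels and their partners, 18 were tested and 15 had a higher mean in female KO (median 0.21, all genes 0.1), with none past the threshold in either sex. This list holds muscle genes such as *Ryr1*. All 16 skeletal muscle markers also had a higher mean in KO (median 1.08 in females and 0.49 in males). The part of muscle RNA in the count was not tested. *Itpr2*, a paralog of *Itpr1*, had 25 ± 4.97 TPM in female WT and 13.9 ± 5.87 TPM in female KO (mean ± SD, n = 4 each), a log2 fold change of -0.89 (SE 0.28, limma adjusted p = 0.231). In males it had 22.5 ± 3.2 and 24.1 ± 3.41 TPM (SD, n = 4) in WT and KO. Between the sexes 2 of the 18 passed, both lower in females: *Fkbp1a*, whose protein binds ryanodine receptors (-0.34, limma adjusted p = 0.0441), and the calmodulin gene *Calm3* (-0.33, limma adjusted p = 0.0428). For SERCA paralogs and regulators, 7 of 8 listed genes were found, and none of 4 tested in females or 5 in males passed. The largest positive value among them was for the muscle pump gene *Atp2a1* (1.67 in females, SE 2.28), which ranged from 0.139 to 656 TPM in step with the muscle markers. *Atp2a3* had 3.88 ± 0.433 TPM in female WT and 6.5 ± 2.49 TPM in female KO (mean ± SD, n = 4 each), a log2 fold change of 0.61 (SE 0.23, limma adjusted p = 0.255).

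Of the store-operated calcium entry genes, which refill the store that these channels empty, 1 of 6 tested passed in the mean KO effect, where 2.95% of all genes did and 317 of those 360 were higher. This was the calcium sensor gene *Stim2*, which rose from 6.13 ± 1.48 to 8.67 ± 1.13 TPM (SD, n = 4) in males and from 5.91 ± 0.704 to 8.12 ± 0.995 TPM (SD, n = 4) in females (0.46, SE 0.11, limma adjusted p = 0.0415). Of 11 tested genes of mitochondrial calcium handling, 11 had a higher mean in male KO (median 0.21, all genes 0.16 with 79.9% higher) and 5 in female KO (median -0.18, all genes 0.1 with 62.7% higher), and none passed in either sex. *Vdac1*, a channel of the outer membrane, passed between the sexes only (-0.48, limma adjusted p = 0.0407). *Letm1* had 96.2 ± 6.88 TPM in female WT and 64.1 ± 21.9 TPM in female KO (mean ± SD, n = 4 each) (-0.63, SE 0.22, limma adjusted p = 0.236). None of 7 tested genes of the alpha1-adrenergic input, which reaches ITPR1 through phospholipase C, passed in any comparison. The receptor gene *Adra1a* had 19.4 ± 4.27 TPM in female WT and 13.4 ± 2.5 TPM in female KO (mean ± SD, n = 4 each) (-0.52, SE 0.19, limma adjusted p = 0.247), and 15.7 ± 1.03 and 15.2 ± 0.75 TPM (SD, n = 4) in male WT and KO.

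Around the creatine cycle, none of 9 tested genes passed in any comparison. In males all 9 had a higher mean in KO (median 0.2, all genes 0.16), and in females 4 of 9 did (median -0.09, all genes 0.1). *Phospho1*, another phosphatase of brown fat, had 211 ± 64.5 TPM in female WT and 282 ± 97.5 TPM in female KO (mean ± SD, n = 4 each), a log2 fold change of 0.41 (SE 0.31, limma adjusted p = 0.489). The adenylate kinase gene *Ak3* had 132 ± 12.5 TPM in female WT and 88.4 ± 36.6 TPM in female KO (mean ± SD, n = 4 each) (-0.67, SE 0.28, limma adjusted p = 0.272). Among genes that supply methyl groups and guanidino precursors, 1 of 8 tested passed, in the mean KO effect (background 2.95%). This was *Ass1* of arginine synthesis, with 3.0 ± 0.677 and 4.04 ± 1.11 TPM (SD, n = 4) in male WT and KO and 1.49 ± 0.329 and 3.17 ± 0.874 TPM (SD, n = 4) in female WT and KO (0.61, SE 0.16, limma adjusted p = 0.049).

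The genes most like each member were sought among those with a mean of at least 5 TPM, by Pearson r of the log2 level over the 16 libraries after each library's median was subtracted. These libraries share their groups and prefixes, so r is a description only. *Itpr1* was most like *Kif1b* (r = 0.96), *Gsk3b* (0.95) and *Mme* (0.95), and *Ryr2* most like *Copg1* (0.88), *Nup205* (0.87) and *Arhgap35* (0.87). *Atp2a2* was closest to *Isca1* (0.93), *Rab10* (0.92) and *Mmachc* (0.92). *Ckb* had *Alg1* (0.96), *Pex6* (0.96) and *Timm50* (0.95), *Alpl* had *Ndst2* (0.91), *Abi3* (0.84) and *Fam43a* (0.84), and *Slc6a8* had *Psmd8* (0.91), *Hr* (0.88) and *Tnfrsf12a* (0.87). *Gamt* was closest to *Cdsn* (0.92), *Tln2* (0.91) and *Zfand3* (0.9). *Ckmt2* was closest to the sarcomere genes *Ldb3* and *Neb* and to *Cox6a2*, the muscle form of a cytochrome c oxidase subunit, each with r = 1.0 after rounding. No member was among the 3 genes most like another member.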

How the data were processed

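Stranded mRNA libraries of BAT were sequenced by the authors and quantified with kallisto 0.46.2 against GRCm39 (per the submitters' processing notes). The authors deposited TPM per transcript. The annotation release is not given in the sources used here. Of 137438 transcripts, 135051 matched GENCODE M21 without their version number and were summed by gene symbol, whereas 2387 did not match. Groups came from the labels. The study counts them as 4 mice a group, with littermate WT controls, and which mice were littermates is not given in the sources used here. The count test of the study needs counts, so the test was limma 3.58.1 (R 4.3.3, lmFit, and eBayes with a trend) on log2(TPM + 0.5), on genes whose TPM averaged 1 or more over the libraries compared. P-values were adjusted over all genes tested by Benjamini-Hochberg (threshold 0.05). The fits were tested on simulated data. All members had an exact two-sided permutation test within each sex (scipy 1.17.1), the only test for members under the minimum. Alternatives were other pseudocounts, minima and scalings, covariates and leaving out each library. Genes beside the members were named by rule: up to 4 per list and comparison with the largest fold change, those past the threshold, and the 3 genes most like each member. The members and lists were chosen with earlier results of these data known. Promoters and their coordinates are RefSeq's on GRCm38.p6, and no coordinates of the data are given.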

Additional observations from a re-analysis of the deposited data

Results flagged for a closer look

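A library that stood far from the other 3 of its group was found in 3 of the 40 combinations of member and group, by Dixon's criterion for 4 values. Chance alone flags about 1 in 20 groups, or 5%. *Ckb* in male WT replicate 2 had 47.8 TPM, where the other male WT libraries had 24.2 to 27.7 TPM. *Ckmt2* in female WT replicate 2 had 11.9 TPM, where the others had 0 to 0.55 TPM. *Ckmt2* in female KO replicate 3 had 29.0 TPM, where the others had 0 to 4.15 TPM. In both *Ckmt2* cases the library also had the largest summed TPM of skeletal muscle markers in its group, with 1590 TPM in female WT replicate 2 and 4400 TPM in female KO replicate 3. No member had a KO effect that passed the test of a difference between the sexes, and none separated the genotypes in opposite directions in males and females.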

How the results depend on the processing

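The number of members past the threshold stayed at 0 in males, in females and for the difference between the sexes under every alternative run. For the mean KO effect it was 1 and became 0 with no TPM minimum, with the library prefix as a covariate and with the length and GC trend removed, and it ranged from 0 to 2 when single libraries were left out. Between the sexes it was 2 and became 1 with a pseudocount of 1, with a mean TPM of at least 5 (which drops *Ryr2*), under median-of-ratios scaling, without the trend and with the length and GC trend removed, and 0 with no TPM minimum, with the prefix and in WT mice only, which are 8 libraries. It ranged from 0 to 2 when single libraries were left out. With no TPM minimum more genes share the adjustment. For the other settings the cause was not tested.

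Signs turned only for differences that had not passed. Median-of-ratios scaling gave -0.04 for *Ryr2* in males, -0.04 for *Slc6a8* in females, and -0.03 for *Gatm* and -0.04 for *Gamt* in the mean effect. With length and GC removed, *Ryr2* in males was -0.09, *Slc6a8* in females -0.07, and *Gatm* and *Gamt* in the mean effect -0.02 and -0.18. The prefix as a covariate gave 0.03 for *Gatm* in females and -0.22 for the interaction of *Alpl*. The muscle score gave -0.02 for *Ckmt2* in females, -0.24 for its interaction and -0.07 for *Alpl* between the sexes. WT mice only gave 0.07 for *Gamt*, -0.09 for *Ckb*, -0.07 for *Alpl* and 0.16 for *Itpr1* between the sexes, and nuclear transcripts only -0.05 for *Alpl* there.

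Leaving out single libraries gave -0.32 to 0.01 for *Ckb*, -0.5 to 1.88 for *Ckmt2* and -0.02 to 0.34 for *Ryr2* in males, and -0.24 to 0.27 for *Gatm*, -0.36 to 1.88 for *Ckmt2* and -0.03 to 0.14 for *Slc6a8* in females. The interaction of *Ckmt2* ran from -1.05 to 1.33, the mean effect from -0.04 to 0.22 for *Gatm* and from -0.08 to 0.06 for *Atp2a2*, and the sex difference of *Alpl* from -0.05 to 0.08.

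Same-numbered WT and KO libraries had correlations of -0.085 to 0.35 in males and -0.109 to 0.146 in females. Those with different numbers had -0.298 to 0.279 in males and -0.306 to 0.429 in females. So few pairs cannot decide whether the numbers pair the mice. The labels name no pairs, and within each group the numbers follow the order in which the samples are listed. With the replicate block, 0 members passed in males, 0 in females, 0 for the interaction and 1 in the mean effect (*Itpr1*, -0.64, limma adjusted p = 0.0319), and genes called in the mean effect went from 360 to 522. It could not be fitted for the sex comparison. Other settings also moved the number of all genes called. The mean effect had 12 calls with the prefix as a covariate, 54 with no TPM minimum and 871 with the muscle score. Leaving out single libraries gave 31 to 1055. Between the sexes, the 546 calls became 93 with the prefix and 8 in WT mice only. They ran from 194 to 1021 when single libraries were left out. TPM keep no depth, which leaves members near 1 TPM, *Gatm* and *Ryr2*, without a counting error.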

Other observations

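Of the leading *Slc6a8* transcripts, *Slc6a8-203* had the lower mean and *Slc6a8-202* the higher mean in female KO libraries. The full coding form *Slc6a8-203* had 4.15 ± 1.08 TPM in female WT and 2.54 ± 0.924 TPM in female KO (mean ± SD, n = 4 each), and its share of the gene was 30.5 to 41.3% and 11.4 to 27.8%. *Slc6a8-202*, annotated as incomplete and as a target of nonsense-mediated decay, had 1.93 to 3.95 TPM in female WT and 4.15 to 5.16 TPM in female KO, without overlap. In males both had the higher mean in KO, with 4.49 ± 0.644 and 5.96 ± 0.823 TPM (SD, n = 4) for *Slc6a8-203* and 3.97 ± 1.13 and 5.2 ± 1.08 TPM (SD, n = 4) for *Slc6a8-202*. The female groups overlapped for *Slc6a8-203* (2.75 to 5.39 TPM in WT, 1.19 to 3.25 TPM in KO). These values rest on how reads were divided among overlapping transcripts, and they were not tested.

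A short *Itpr1* transcript with a retained intron, *Itpr1-210* (486 bases), had 0 to 1.82 TPM in male WT and 2.31 to 5.19 TPM in male KO libraries, without overlap. Its mean was also higher in female KO (1.66 TPM) than in female WT (0.726 TPM), with overlapping groups, and neither difference was tested. *Gatm* was most like *Tardbp* (r = 0.78) and the myelin genes *Mbp* (0.78) and *Pmp22* (0.73) over the 16 libraries. Its highest value, 2.78 TPM, was in female WT replicate 2. *Ryr1*, the muscle ryanodine receptor, ran from 0.15 to 6.73 TPM in male WT and 0.0874 to 15.1 TPM in male KO. In females it ran from 0 to 4.39 TPM in WT and 0.0185 to 12.7 TPM in KO. The highest *Ryr1* value of each group was above *Ryr2* in any library, and the lowest was below it. In each group the highest *Ryr1* value was in the library with the largest summed TPM of skeletal muscle markers.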
